A study of Homo sapiens with 4 samples.

Results

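FUCA2 and the genes of fucose metabolism were followed in the RNA of HEK293T cells with and without the chromatin ATPase MORC2. The set held 10 genes, all 10 of them among the 16675 genes tested, out of 28775 genes in the deposited count table. They were the α-L-fucosidases FUCA1 and FUCA2, the fucosyltransferases FUT8, FUT10, POFUT1 and POFUT2, and the enzymes of GDP-fucose synthesis FCSK, FPGT, GMDS and GFUS. The set was chosen by the counts of FUCA2 in KO against WT cells, where it had one of the most certain rises (rank 3 of all tested genes by p-value), so the values of FUCA2 between the genotypes are given here as a description, without a test. The remaining 9 genes were listed for their place in the pathway.

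HEK293T is a transformed human embryonic kidney line. MORC2 KO replicate 1 carried a knock-out made with sgRNA 1 and MORC2 KO replicate 2 one made with sgRNA 2. Both were compared with 2 wild-type (WT) samples of the same line, for which no sgRNA is listed. According to the study's methods, the KO samples were populations edited with Cas9 protein and guide RNA rather than single clones. Polyadenylated RNA was sequenced as 65 bp read pairs, and the 4 libraries held between 53970043 and 64312514 counted pairs.

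Fucose is a deoxy sugar that ends or branches many glycans. GDP-fucose, the donor for every fucosyltransferase, is made de novo from GDP-mannose by GMDS and GFUS, or by salvage of free fucose, which FCSK phosphorylates and FPGT joins to GMP. FUT8 adds the core fucose of N-glycans, POFUT1 places O-fucose on EGF-like repeats such as those of Notch, and POFUT2 does so on thrombospondin repeats. FUT10, listed as POFUT3 in RefSeq, is a further family member of the endoplasmic reticulum. Fucosidases remove fucose again: FUCA1 is the lysosomal enzyme whose loss causes fucosidosis, and FUCA2 is its secreted relative.

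The promoter windows of both fucosidases are given because FUCA2 is the gene the set was chosen for and FUCA1 is its paralog. They were taken from RefSeq (GRCh38.p14, minus strand for both) and run 5′ to 3′ from 250 bases before the start site to 50 bases after it, at chr6:143511671-143511970 for FUCA2 and chr1:23868241-23868540 for FUCA1. Capitals mark the GC box (GGGCGG, or CCGCCC where it lies on the other strand) and, in FUCA1, the CCAAT box.
FUCA2: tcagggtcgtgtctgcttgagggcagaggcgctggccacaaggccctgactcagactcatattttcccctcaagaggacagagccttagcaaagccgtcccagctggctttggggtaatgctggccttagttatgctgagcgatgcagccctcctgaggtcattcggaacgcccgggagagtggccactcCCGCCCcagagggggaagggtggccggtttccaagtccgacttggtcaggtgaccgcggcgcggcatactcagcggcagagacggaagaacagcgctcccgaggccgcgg
FUCA1: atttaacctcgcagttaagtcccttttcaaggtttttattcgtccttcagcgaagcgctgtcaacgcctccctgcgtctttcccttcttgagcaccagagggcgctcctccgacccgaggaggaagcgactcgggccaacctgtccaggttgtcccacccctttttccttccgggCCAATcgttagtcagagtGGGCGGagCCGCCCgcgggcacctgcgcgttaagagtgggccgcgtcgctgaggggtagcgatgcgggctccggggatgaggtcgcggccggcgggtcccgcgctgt

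Both windows were rich in G and C, with a GC content of 63.0% for FUCA2 and 63.3% for FUCA1, and held 20 and 31 CpG dinucleotides against a median of 14 over 35116 RefSeq windows of the same 300 bases. On both strands, FUCA2 had 1 GC box at -60 and no CCAAT, whereas FUCA1 had 2 GC boxes at -57 and -49 and 1 CCAAT at -75. A GC box was present in 44.95% and a CCAAT in 34.6% of all windows. Neither window held CACGTG (7.26% of windows), the cAMP response element TGACGTCA (1.85%) or TATAAA (11.5%). These matches describe the letters alone, since binding was not measured in these libraries. Windows were found for 8 of the 10 genes, not for FUT10 and GFUS.

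The targeted gene was lower in both knock-out libraries. MORC2 was counted 3064 and 3637 times in the knock-outs and 5131 and 4669 times in wild-type cells, or 53.1 ± 2.69 against 87.0 ± 1.06 CPM (counts per 1e6 counted pairs, with TMM scaling, mean ± SD, n = 2 each). Its RNA was thus still present at 61.1% of the WT level (log2 fold change -0.71, SE 0.06, adjusted p = 0.000137, edgeR quasi-likelihood test), which does not measure the protein. According to the study's methods, the protein was examined separately in the knock-out cells by western blot. Of 6 markers of HEK293 cells, VIM made up most of the summed level of 713 to 755 CPM, NEFL and CDH2 lay between 63.5 and 98.6 CPM and NEFM between 5.99 and 8.85 CPM, whereas the renal factors PAX2 and LHX1 were low, at 0.507 to 1.60 CPM. NEFM had a higher level in both KO samples (log2 fold change 0.44, SE 0.11, edgeR unadjusted p = 0.00143, adjusted p = 0.118), and its part in the results was not tested. The 4 markers of leukocytes, hepatocytes and cardiomyocytes summed to between 0.545 and 1.14 CPM. Of the 8 markers that could be tested, 0 were called, and PTPRC and MYH6 were not tested, with at most 3 counts in a library.

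FUCA2 was higher in both MORC2 KO samples. The gene (Entrez 2519, chr6:144687220-144704128 in T2T-CHM13v2.0, minus strand, 7 exons) was counted 7256 and 8055 times in the knock-outs and 4388 and 3942 times in wild-type cells. On the CPM scale these were 121 and 122 against 73.7 and 74.1. The lowest KO value thus lay above the highest WT value. The means were 121.6 ± 0.40 and 73.9 ± 0.23 CPM (SD, n = 2 each), so that the KO level was 165% of the WT level (log2 fold change 0.72). On the log2 CPM scale the gap between the genotypes was 0.71, whereas the KO samples differed by 0.0066 and the WT samples by 0.0063. By size, this was rank 39 of the 98 genes called higher, a call that 0.588% of all tested genes received. Over all tested genes, the median difference between replicates on this scale was 0.120 for KO and 0.076 for WT samples. A choice by certainty favours a gene whose replicates lie so close together, and the fit gave FUCA2 an SE of 0.06. As the gene was chosen for its rise, its gap against its spread, its place among the called genes and its intervals in the figures are no test of it. In bulk RNA of an edited population, a higher level in every cell and a still higher level in some cells cannot be told apart.

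FUCA1 did not pass the test. This lysosomal fucosidase (Entrez 2517, chr1:23680157-23703377, minus strand, 10 exons) was measured at 12.3 and 10.5 CPM in the KO samples and at 10.97 and 11.05 CPM in the WT samples, from 588 to 733 counts. The KO values lay on either side of the WT values. The log2 fold change was 0.05 (SE 0.10, 95% interval -0.16 to 0.26, adjusted p = 0.855). Per kb of exon, FUCA2 was 10.4 and 12.1 times as abundant as FUCA1 in the KO samples and 7.05 and 7.03 times in the WT samples. FUCA2 made up 91.2% and 92.4% of the summed fucosidase RNA per kb in the KO samples and 87.6% in each WT sample. These ratios and shares carry the rise of FUCA2 for which the set was chosen and are no separate result.

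The enzymes that make GDP-fucose de novo did not pass the test. GMDS, the GDP-mannose dehydratase, had 29.8 and 28.2 CPM in the KO samples and 28.9 and 31.6 CPM in the WT samples (log2 fold change -0.06, SE 0.07, adjusted p = 0.715). GFUS, which completes the synthesis, had 42.5 and 38.4 against 40.2 and 43.3 CPM (log2 fold change -0.05, SE 0.07, adjusted p = 0.790). For both genes the samples of the genotypes overlapped.

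Of the salvage enzymes, FCSK was the member closest to FUCA2 in direction and size. This fucokinase had 26.04 and 28.65 CPM in the KO samples and 23.7 and 25.6 CPM in the WT samples, and its KO values lay above its WT values by less than the difference between samples of 1 genotype. Its log2 fold change of 0.15 (SE 0.07, 95% interval -0.01 to 0.31) gave an unadjusted p of 0.0649 and an adjusted p of 0.375 in the edgeR test, and it did not pass. Without KO replicate 1 it was 0.22 and passed (adjusted p = 0.0266), as did 21.2% of all tested genes in that setting. FPGT, the next enzyme of the route, had 29.3 and 27.6 against 28.99 and 29.22 CPM, with a log2 fold change of -0.03 (SE 0.07, adjusted p = 0.844). Of the exonic bases of FPGT, 8.10% overlap the readthrough gene FPGT-TNNI3K, which had at most 6 counts in a library, and pairs that fell on both genes were not counted.

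None of the fucosyltransferases passed the test. FUT8, the core fucosyltransferase, had 30.5 and 27.8 CPM in the KO samples and 28.2 and 28.9 CPM in the WT samples (log2 fold change 0.03, SE 0.07, adjusted p = 0.882). Reads were counted without strand and 23.9% of its exonic bases overlap the antisense gene FUT8-AS1, which had 30 or 31 counts in each library. Pairs that fell on both genes were not counted. POFUT1, which modifies Notch, had 160 and 152 against 159 and 161 CPM (log2 fold change -0.04, SE 0.06, adjusted p = 0.809), and POFUT2 had 63.7 and 64.8 against 63.3 and 65.8 CPM (log2 fold change -0.01, SE 0.06, adjusted p = 0.978). FUT10 was measured at 15.6 and 14.1 CPM in the KO samples and 14.5 and 13.6 CPM in the WT samples (log2 fold change 0.07, SE 0.09, adjusted p = 0.719). In all 4 genes the samples of the genotypes overlapped.

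Of the 9 genes other than FUCA2, 0 were called at an adjusted p under 0.05 by edgeR, 0 had an unadjusted p under 0.05 and 0 were called by DESeq2, where edgeR called 0.618% of all tested genes and 14.3% had an unadjusted p under 0.05. Their log2 fold changes lay between -0.06 and 0.15, with 4 above and 5 below 0 and a median of -0.01, beside a median of 0.01 over all genes. The 95% intervals reached from -0.21 at the lowest to 0.31 at the highest. In 1 of the 9, FCSK, the genotypes did not overlap, whereas 47.5% of all tested genes had such a separation in these 4 samples, 24.1% with KO above WT and 23.4% with KO below WT. When KO replicate 1 was left out, 1 of the 9, FCSK, was called beside 21.2% of all tested genes, and when any other sample was left out, 0 were called.

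**Figure D1:**
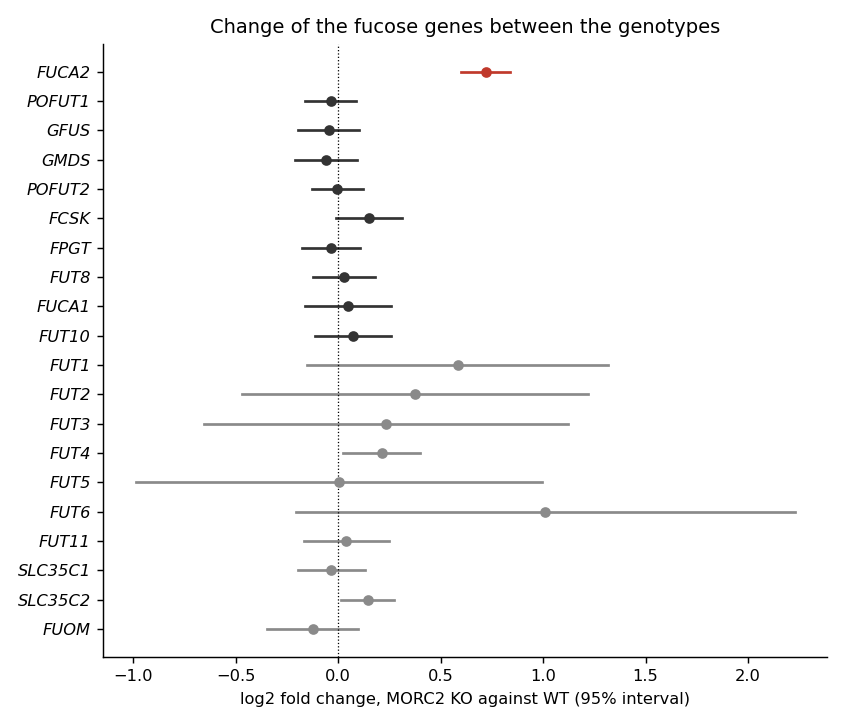
Log2 fold change of MORC2 KO against WT with its 95% interval for the 10 fucose genes (FUCA2 in red, the remaining 9 in black) and for 10 further fucose genes (grey). FUCA2 stands at 0.72, the intervals of the 9 other members end at 0.31 or lower, and the widest intervals belong to fucosyltransferases with few counts, such as FUT6.

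The order of the levels was the same in both genotypes when compared per kb of exon. In WT cells, FUCA2 was highest at 31.0 CPM per kb, followed by POFUT1 at 26.02, GFUS at 21.3, GMDS at 17.5 and POFUT2 at 13.5. FCSK (6.31) and FPGT (6.20) came next and did not differ beyond their spread, and FUT8 (4.89), FUCA1 (4.40) and FUT10 (3.96) were lowest. An overlapping gene shares 23.9% of the exonic bases of FUT8 and 8.10% of those of FPGT. Pairs on both genes were not counted, though the whole exonic length was used. The levels per kb of FUT8 and FPGT, and so their places in the order, could be too low. In KO cells FUCA2 stood at 51.0 CPM per kb, above POFUT1 at 25.4, and FUCA1 (4.56) overlapped both FUT8 (4.99) and FUT10 (4.18). The level of FUCA2 in WT cells was at the 85.3rd percentile of all tested genes. The balance of de novo against salvage enzymes was 2.59 and 2.23 in KO and 2.76 and 2.79 in WT samples for GMDS over FCSK per kb, and 3.47 and 3.33 against 3.32 and 3.55 for GFUS over FPGT.

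Beyond the 10 genes, 12 further fucosyltransferases, transporters and related genes were examined, of which 10 could be tested. Of these, 0 were called by edgeR or DESeq2, 2 had an unadjusted p under 0.05, both higher in KO, and the median log2 fold change was 0.18, with 8 of 10 above 0. Of all 16675 tested genes, 8.14% had such a p with a higher level in KO, 8593 had a positive value and the median was 0.01. The division moved with the scaling, to 6 above and 4 below (median 0.12) with loess offsets and 9 above and 1 below (0.22) with library size alone. FUT4, an α1,3-fucosyltransferase that makes Lewis x structures, had 13.4 and 14.2 CPM in KO against 12.5 and 11.4 CPM in WT samples (log2 fold change 0.21, SE 0.09, adjusted p = 0.308). SLC35C2, a transporter-like Golgi protein listed as SLC35H1 in RefSeq, had 65.9 and 70.8 against 62.6 and 61.2 CPM (log2 fold change 0.14, SE 0.06, adjusted p = 0.315). Of the exonic bases of FUT4, 10.9% overlap PIWIL4-AS1. The KO values of both genes lay above the WT values without passing the test. FUOM, the fucose mutarotase, had a log2 fold change of -0.12 (adjusted p = 0.596). The Golgi transporter of GDP-fucose, SLC35C1, stood at -0.03 (adjusted p = 0.878). The largest values in this list rested on few reads, with FUT6 at 1.01 from 4 to 14 counts in a library, FUT1 at 0.58 from 26 to 76 and FUT2 at 0.37 from 15 to 25. FUT3, FUT5 and FUT6 are near-identical copies among which reads could be split. FUT7 and FUT9 were not tested, with at most 5 counts in a library.

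The 8 genes that lead from glucose or mannose to GDP-mannose, the substrate of GMDS, all had negative log2 fold changes (median -0.11), and in 7 of them the KO samples lay below the WT samples. Of all 16675 tested genes, 8082 had a negative value and 23.4% such a separation. An unadjusted p under 0.05 with a lower level in KO was found in 6.17% of all tested genes. None of the 8 genes passed the test after adjustment by edgeR or DESeq2, and 2 had such a p with a lower level. These were the phosphomannomutases PMM2, at 46.7 and 42.8 CPM in KO against 50.9 and 50.4 in WT samples (log2 fold change -0.18, SE 0.06, adjusted p = 0.252), and PMM1, at 14.9 and 14.8 against 17.2 and 16.3 CPM (-0.17, SE 0.08, adjusted p = 0.346). The most abundant genes of this group per kb, GPI and HK2 of the upper glycolytic steps, had log2 fold changes of -0.14 (adjusted p = 0.359) and -0.08 (adjusted p = 0.549). With scaling by library size alone, 7 of the 8 values were negative and the median was -0.07, and 7 were negative when KO replicate 2 or WT replicate 2 was left out. All 8 were negative without KO replicate 1 (median -0.14) or WT replicate 1 (median -0.13).

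Of 12 N-glycan processing genes, which build the chains that FUT8 modifies, 0 were called and 2 had an unadjusted p under 0.05, with a median log2 fold change of 0.04. Over all tested genes, 0.618% were called, 14.3% had such a p and the median was 0.01. MAN2A2, a Golgi mannosidase, stood at 0.17 (SE 0.06, adjusted p = 0.268), and MGAT3, which adds the bisecting N-acetylglucosamine, at 0.36 (SE 0.15, adjusted p = 0.322). With a sample left out, MGAT3 lay between 0.20 and 0.50, the lower without KO replicate 2 and the higher without KO replicate 1. The most abundant members per kb, MGAT4B and MGAT2, had values of 0.01 each.

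Among 16 tested genes for Notch and for O-glycans on EGF-like repeats, where POFUT1 acts, 0 were called and the median log2 fold change was 0.10, with 11 above 0. Of all 16675 tested genes, 0.618% were called, 14.3% had an unadjusted p under 0.05 and 8593 were above 0, with a median of 0.01. EOGT, which adds N-acetylglucosamine to EGF-like repeats, had 19.1 and 21.1 CPM in KO and 16.9 and 16.6 CPM in WT samples (log2 fold change 0.26, SE 0.08, unadjusted p = 0.00554, adjusted p = 0.192) and was the 1 gene of this list with an unadjusted p under 0.05. The O-glucosyltransferase POGLUT3 and RFNG, which elongates O-fucose, were the most abundant per kb and had values of 0.12 and 0.10 (adjusted p = 0.359 and 0.478). MFNG was not tested, with at most 6 counts in a library.

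The 16 other lysosomal glycosidases and related enzymes, the functional neighbours of FUCA1, had 8 values above and 8 below 0 and 0 genes called. The division moved with the scaling, to 6 above and 10 below with DESeq2 and 11 above and 5 below with library size alone. The value nearest to the threshold was that of IDUA, the iduronidase of glycosaminoglycan breakdown, at 8.71 and 8.88 CPM in KO against 6.60 and 6.63 CPM in WT samples (log2 fold change 0.41, SE 0.10, unadjusted p = 0.00147, adjusted p = 0.118). Of its exonic bases, 5.47% overlap SLC26A1. NAGLU, of heparan sulphate breakdown, stood at 0.24 (SE 0.07, adjusted p = 0.205). GLA, the α-galactosidase, stood at -0.16 (SE 0.07, adjusted p = 0.333), and at -0.27 without KO replicate 1 and -0.06 without KO replicate 2. IDUA and NAGLU passed when genes of low count were kept in the edgeR test (adjusted p = 0.0138 and 0.0433). That setting called 645 of 22728 genes, against 103 of 16675 in the main fit. Over the alternatives fixed for this comparison, the adjusted p of IDUA and NAGLU ranged up to 0.198 and 0.340. GUSB, the β-glucuronidase and among the most abundant of the list per kb, had a value of -0.03. Over the 5 lists together, 0 of 62 tested genes were called, and 7 had an unadjusted p under 0.05 with a higher and 4 with a lower level in KO cells, against 8.14% and 6.17% of all tested genes. Without KO replicate 1, 19 of the 62 were called, 7 of them lysosomal, beside 21.2% of all tested genes, and 0 were called without any other sample.

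None of the tested genes within 500 kb of FUCA2 on chromosome 6 was called. Within 250 kb of the gene lay 5 others, of which 4 were tested, 0 were called and 0 had an unadjusted p under 0.05. Over all tested genes, 0.618% were called and 14.3% had such a p. With so few neighbours, these counts do not set them apart from other genes. PEX3, a peroxisome assembly factor that ends 4.20 kb from FUCA2, had a log2 fold change of -0.06 (adjusted p = 0.686), and PHACTR2, whose start lies 25.2 kb upstream, one of 0.12 (adjusted p = 0.409). PHACTR2 stood at 0.19 when KO replicate 1 was left out and at 0.05 when KO replicate 2 was left out. ADAT2 stood at 0.08 (adjusted p = 0.555) and AIG1 at 0.12 (adjusted p = 0.392). Within 500 kb, the 7 tested genes lay between -0.15 and 0.12 and 0 were called, whereas 1 of them, LTV1, a ribosome assembly factor named here after its value was seen, had an unadjusted p of 0.0235 in the edgeR test with a lower level in KO cells.

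The genes whose pattern over the 4 samples was most like that of FUCA2 were found by the Euclidean distance of their centred log2 CPM, on a scale where FUCA2 itself lay 0.719 from a flat line. They were LINC01588 (0.0575), WASHC5-AS1 (0.0606), PABPC4L (0.0665), ZNF239 (0.0673) and KC6 (0.0708). PABPC4L, a relative of the poly(A)-binding proteins, had 20.003 and 21.3 CPM in KO and 12.8 and 12.6 CPM in WT samples, and the zinc finger gene ZNF239 had 19.5 and 19.6 against 11.6 and 11.2 CPM. The non-coding genes LINC01588, WASHC5-AS1 and KC6 were each under 1 CPM. PABPC4L and ZNF239 were among the genes called higher (log2 fold change 0.70 and 0.78, edgeR adjusted p = 0.000792 and 0.000418), and the remaining 3 were not. The measure was computed on the same 4 libraries as the comparison itself. The pattern of FUCA2 was almost wholly a step between the genotypes, so the calls of genes picked by likeness to it are no separate support.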

How the data were processed

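RNA-seq counts of 2 MORC2 KO and 2 WT HEK293T samples were used, grouped by the labelled genotype. Alignment by the authors used Subread 2.0.6 and the T2T-CHM13v2.0 genome, and they deposited raw counts of pairs per RefSeq gene, with the exonic length in bases as a further deposited column. Per the file headers, featureCounts 2.0.6 counted without strand, included multi-mapping reads and left out pairs on more than 1 gene. Entrez identifiers were matched to RefSeq symbols (28763 of 28775).

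Genes of low count were removed with filterByExpr and libraries scaled by TMM (factors 0.986 to 1.03). The edgeR 4.0.16 quasi-likelihood F-test (older form, R 4.3.3, limma 3.58.1) compared genotypes, with Benjamini-Hochberg adjustment over all 16675 tested genes and a threshold of 0.05. The biological coefficient of variation was 5.33%. Replicates differed beyond sampling noise (chi-square per degree of freedom 16.8 for KO and 6.56 for WT). The KO samples came from different guides and, according to the study's methods, the WT samples were independent replicates. The p-values rest on the spread within the genotypes of these 4 samples, pooled over both genotypes and shared in part across genes. They do not measure the spread of each gene alone. Levels between genes were compared as CPM per kb of exon.

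The genes named were MORC2, the 10 members, genes of the 5 pathway lists with an unadjusted p under 0.05, the 2 most abundant per kb of each list, tested genes within 250 kb of FUCA2, and the 5 most like it in pattern. Of these, 2 genes of the lysosomal list are not reported here. The members and lists were chosen with earlier results of these data known. Alternatives were DESeq2 1.42.0, the newer edgeR form, RLE scaling, library size alone, other count filters, loess offsets on abundance (span 0.3), offsets on GC content and length (GC found for 94.9% of tested genes), a replicate block and leaving out each sample. Scripts were tested on simulated data.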

Additional observations from a re-analysis of the deposited data

How the results depend on the processing

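The direction of FUCA2 and MORC2 and the side of the threshold of MORC2 were kept under each alternative for which their values were computed, which leaves out the crossed pairing. The log2 fold change of FUCA2 was 0.71 with DESeq2, 0.71 with RLE scaling, 0.76 with library size alone, 0.75 with loess offsets on abundance and 0.73 with offsets on GC content and length, against 0.72 as reported, and lay between 0.716 and 0.722 when each sample was left out in turn. That of MORC2 lay between -0.73 and -0.67, and between -0.76 and -0.66 with a sample left out. Of the 9 other members, 0 were called with all 4 samples in the fit, the crossed numbers included. edgeR called 98 genes higher and 5 lower. With a sample left out, a test added after seeing the data in which the lone sample is assumed to vary like the other genotype, between 86 and 1598 genes were called higher, between 9 and 1936 lower, between 0 and 1 of the 9 members and between 0 and 19 of the pathway lists. The highest of each came without KO replicate 1, and without any other sample at most 147 were called higher and 22 lower. With all samples but no filter on low counts, 463 genes were called higher and 182 lower, with GC content and length offsets 179 and 31, and DESeq2 called 115 and 17. Without the filter, 2 genes of the pathway lists passed, IDUA and NAGLU. With a replicate block, which pairs samples by their number alone, 237 genes were called higher and 42 lower. Same-numbered samples did not deviate together (correlation -0.124), and with the numbers crossed, a setting chosen after seeing the data, 903 were called higher, 809 lower and 7 of the pathway lists. The higher share of all calls was thus 95.1% as reported, 71.8% without the filter, 84.9% with the replicate block and 52.7% with the numbers crossed. The cause of these shifts was not tested.

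Values near 0 changed sign without passing the threshold. With library size alone, POFUT1 stood at 0.0029, POFUT2 at 0.035, FPGT at 0.0047 and GUSB at 0.0099. With loess offsets, POFUT1 stood at 0.014, POFUT2 at 0.015 and GUSB at 0.0070, and with GC content and length offsets MGAT4B stood at -0.0069. With a sample left out, values ranged from -0.064 to 0.157 for FUCA1, -0.039 to 0.098 for FUT8, -0.00049 to 0.147 for FUT10, -0.033 to 0.023 for POFUT2, -0.077 to 0.010 for FPGT, -0.124 to 0.0045 for GMDS, -0.121 to 0.028 for GFUS, -0.041 to 0.066 for MGAT2, -0.050 to 0.082 for MGAT4B and -0.134 to 0.012 for PEX3. With 2 samples in each genotype, changes of the 9 members within the intervals given could not be resolved.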
